A study of Mus musculus with 2 samples.

Results

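The cells described here are tumour cells with high transcript levels of Il24, Msln, Il11, Dynap and Trib3 in Lewis lung carcinoma (LLC) tumours, which grow under the skin of mice from a lung cancer line of that species. They were chosen by measured values: the members are the top 10% of tumour cells, pooled over both libraries, by the summed CPM of these 5 genes (counts per 1000000 of the cell's unique molecular identifiers , UMIs, which count captured molecules). Of 7469 tumour cells among 17864 barcodes, 747 were members, 576 in control and 171 in anti-PD-1. A tumour cell had at least 5000 UMIs, at least 300 genes, at most 20% mitochondrial UMIs, at least 500 CPM over the tumour genes Hmga2, Igf2bp1, Igf2bp2 and Wnt7b, and under 300 CPM over the immune genes C1qa, C1qb and Ptprc.

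The study compared 1 single-cell library of tumour tissue from LLC-bearing mice given an IgG2a isotype control antibody with 1 from mice given an anti-PD-1 antibody, which blocks a receptor that restrains T cells. The design text gives 7 days after treatment for the anti-PD-1 cells and calls the control cells untreated, while the labels name the isotype antibody. The strain and age of the mice, the dose and the number of mice behind each library are not given in the sources used here. With 1 library per group no test between groups was possible, no p-value is given, and all 95% intervals cover counting error only.

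Each of the 5 genes has a known role. Il24 encodes a cytokine of the IL-10 family, and Il11 a cytokine of the IL-6 type that signals through the shared receptor gp130. Msln encodes mesothelin, a surface glycoprotein of mesothelium and of many carcinomas. Trib3 encodes a pseudokinase that is transcribed when ATF4, the transcription factor of amino acid shortage and of the integrated stress response, is active. Dynap encodes a membrane protein that binds dynactin. On the mouse build mm10, Il24 lies on the minus strand of chromosome 1 from 130882074 to 130887454, Msln on that of chromosome 17 from 25748613 to 25754378 and Il11 on that of chromosome 7 from 4772373 to 4782859.

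The members were a range of a continuous score and not a separate type. The lowest member had 319.3 CPM over the 5 genes and the highest cell outside had 318.9 CPM. Within 10% of that threshold lay 215 cells, 83 members and 132 others. In all, 41.7% of tumour cells had no UMI of the 5 genes, 29.3% in control and 49.6% in anti-PD-1. The median member carried 10 UMIs of the 5 genes in control and 6 in anti-PD-1. The median sum was 506 CPM and 457 CPM. The plot of marker sums shows no gap at the threshold in either library.

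**Figure D1:**
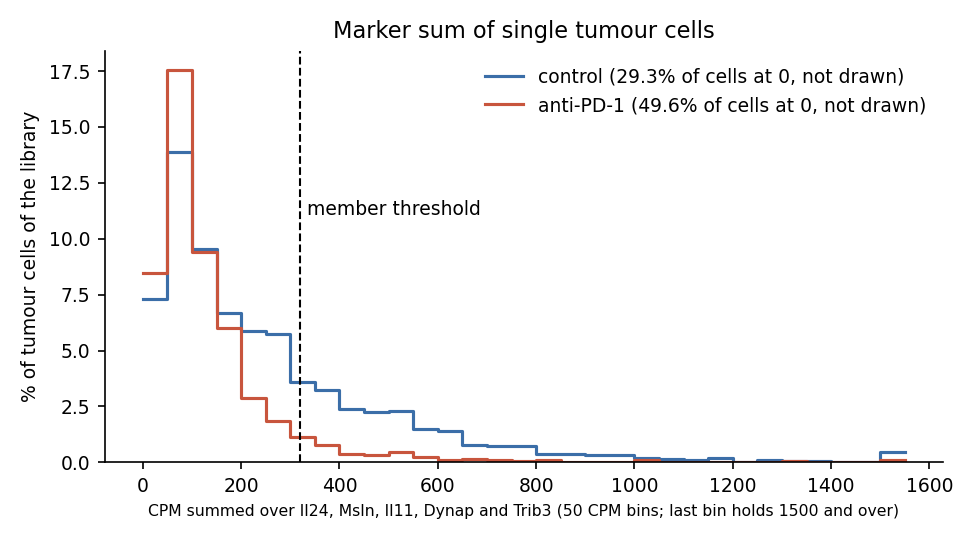
Distribution of the CPM summed over Il24, Msln, Il11, Dynap and Trib3 in single tumour cells, as a percentage of each library's tumour cells (2900 control, 4569 anti-PD-1); cells at 0 are given in the key and not drawn. Both curves fall smoothly through the member threshold (dashed line), and the control curve lies above the anti-PD-1 curve beyond it.

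Members made up 19.9% of control tumour cells (576 of 2900, exact Clopper-Pearson 95% interval 18.4 to 21.4) and 3.74% of anti-PD-1 tumour cells (171 of 4569, 3.21 to 4.33). Control thus supplied 77.1% of all members. The anti-PD-1 share was 6.09%, and the control share 20.5%, when no UMI of the immune genes was allowed in a tumour cell. Members had a median of 18732 UMIs and 5902 genes in control and of 11891 UMIs and 4734 genes in anti-PD-1, against 17430 and 14387 UMIs in the other tumour cells. The libraries shared 107 barcodes; 89 tumour cells and 10 members carried one of them. The tumour genes that defined the gate stood at 1275 CPM in members and 1264 CPM in other tumour cells of control, and at 1537 and 1374 CPM in anti-PD-1. The 12 T and NK cell markers were low and summed to 51.8 CPM in members and 56.7 CPM in other tumour cells of control, and to 40.2 and 40.8 CPM in anti-PD-1. The 12 macrophage and monocyte markers summed to 527 against 512 CPM and to 613 against 530 CPM, with none of them at 0 in members. The 5 mesothelial markers summed to 32.5 against 37.4 CPM and to 28.1 against 34.2 CPM, and 3 of the 5 were at 0 in members.

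The rule fixed that the 5 genes are high in members, so their levels are a description. Il24 stood at 79.9 CPM in members and 17.9 CPM in other tumour cells of control, and at 30.2 and 2.07 CPM in anti-PD-1. Msln stood at 166 against 34.1 CPM and at 147 against 23.4 CPM. Il11 stood at 139 against 22.3 CPM and at 226 against 17.01 CPM. Msln was thus the highest of the 5 in control members and Il11 in anti-PD-1 members, while Il24 was the lowest in anti-PD-1 members. Trib3 stood at 118 CPM in members of both libraries, against 17.7 CPM in other control cells and 6.55 CPM in other anti-PD-1 cells. Dynap stood at 54.0 against 10.4 CPM and at 38.4 against 6.06 CPM.

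**Figure D2:**
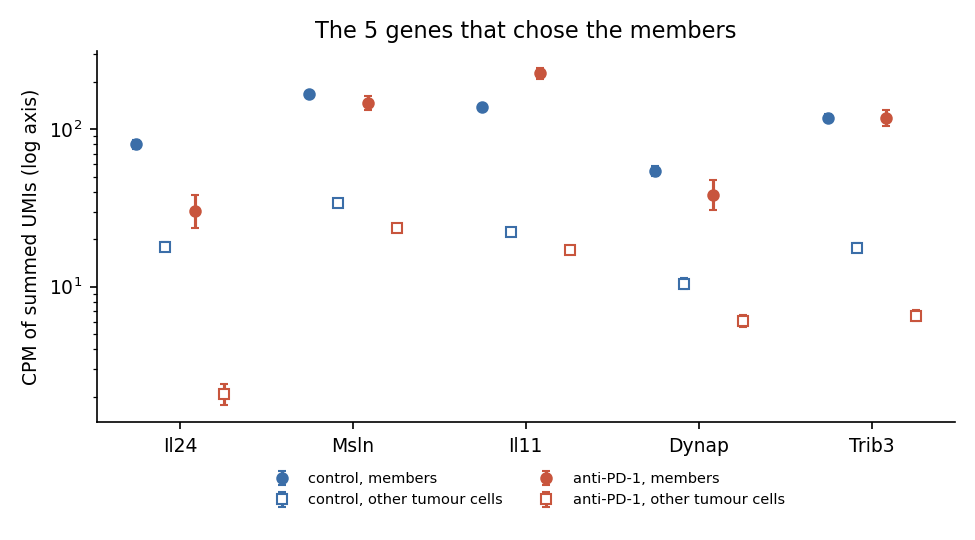
CPM of summed UMIs (log axis) of the 5 rule genes in members (filled) and other tumour cells (open) of each library, with exact Poisson 95% intervals. Members lie above the other cells for every gene because the genes chose them; Il24 in anti-PD-1 members, at 30.2 CPM, is the lowest of the filled points.

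Detection of the rule genes is given as a description, since their sum chose the members. An Msln UMI was found in 78.5% of control and 55.0% of anti-PD-1 members, in 32.2% and 26.4% of other tumour cells, and in 8.71% and 5.78% of immune cells, which should lack it and had median depths of 8453 and 8121 UMIs. An Il24 UMI was found in 61.3% of control members but in 22.8% of anti-PD-1 members, in 21.4% and 3.02% of other tumour cells, and in 9.50% and 0.44% of immune cells. With each cell thinned to 5000 UMIs the Il24 shares were 31.6% and 12.9% of members, 5.77% and 0.95% of other tumour cells, and 3.43% and 0% of immune cells. At least 3 of the 5 genes were found in 63.7% of control and 20.5% of anti-PD-1 members, against 13.6% and 2.32% of other tumour cells. Control members were deeper and carried more UMIs of the 5 genes, as given above. With the same thinning, added after seeing the data, the shares were 16.8% and 3.51% of members and 0.39% and 0.023% of other tumour cells. A single gene carried the sum in 9.90% of control and 40.9% of anti-PD-1 members.

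Each gene was also read in cells rechosen on the other 4 genes, where it took no part in ranking the cells. The 5 genes were themselves chosen with earlier results of these data known, so these ratios are descriptions too. In control all 5 were higher in those cells, with log2 ratios of 1.34 for Dynap (1.18 to 1.51), 1.04 for Il24 (0.91 to 1.18), 0.89 for Msln (0.80 to 0.99), 0.59 for Il11 (0.47 to 0.70) and 0.54 for Trib3 (0.41 to 0.67). In anti-PD-1 the ratio was 2.63 for Il24 (2.10 to 3.13), 1.16 for Il11 (0.87 to 1.44) and 0.79 for Trib3 (0.29 to 1.25). For Msln it was 0.16 (-0.16 to 0.47) and for Dynap 0.45 (-0.26 to 1.07), both with intervals that include 0. Among members themselves most pairs of the 5 genes were negatively correlated, which a choice by their sum can itself produce. Pearson's r of log2 values across cells was -0.36 for Msln and Il11 in the 576 control members and -0.52 in the 171 anti-PD-1 members. Il24 and Msln gave 0.16 and 0.14.

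Outside the rule and gate genes, 9490 genes had at least 20 expected member UMIs in each library. Over 1.5-fold in the same direction in both libraries, 63 of them were higher in members than in other tumour cells (0.664%) and 60 were lower (0.632%). Genes of the amino acid stress programme driven by ATF4, to which Trib3 also belongs, made up 13 of the 63. Members were chosen on expression in these same cells, so all ratios against other tumour cells are descriptions.

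The amino acid stress genes were higher as a group. Of 35 measured genes of the list, which does not hold Trib3, 13 were over 1.5-fold higher in both libraries, none was over 1.5-fold lower, and 34 of 35 had ratios above 0 in both. Of all 9490 measured genes, 2836 had ratios above 0 in both. The list's median log2 ratio was 0.54 in control and 0.70 in anti-PD-1, against -0.02 and -0.01 over all measured genes. Summed over the whole list, members held 6800 CPM in control and 6021 CPM in anti-PD-1, and other tumour cells 4721 and 3922 CPM. The list's difference rested on Trib3: with members rechosen without Trib3 the medians were 0.14 and -0.0037, and with Il24 and Msln alone 0.14 and -0.072.

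Chac1, which encodes an enzyme that degrades glutathione, had the highest ratio of all by the smaller of both libraries' values. It stood at 55.1 CPM in members and 12.4 CPM in other tumour cells of control, and at 71.7 and 8.46 CPM in anti-PD-1, log2 ratios of 2.15 (1.996 to 2.30) and 3.08 (2.83 to 3.33). Its UMIs came from 203 of 576 control members and 44 of 171 anti-PD-1 members. Aldh1l2, a mitochondrial enzyme of folate metabolism, stood at 126 against 45.8 CPM and at 109 against 20.1 CPM, ratios of 1.46 and 2.44. Among the transporters, Slc6a9 for glycine had ratios of 1.05 and 1.13 and Slc1a4 for small neutral amino acids 1.05 and 1.5. Of the enzymes, Psph, the last step of serine synthesis, had 1.04 and 0.78, the folate enzyme Mthfd2 0.84 and 0.68, and the alanine transaminase Gpt2 0.99 and 1.0. Atf5, a transcription factor of the programme, had 0.90 and 1.47. Atf4 itself, which is controlled largely at translation, had 0.18 and 0.64, and Phgdh, the entry enzyme of serine synthesis, 0.14 and -0.12.

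ATF4 binds a composite element with C/EBP proteins, searched here as TGATGNAA on both strands of the 250 bases upstream of RefSeq starts (GRCm38.p6). The element occurred in 3.45% of 32851 such windows. Counted by gene, with a match in any window of the gene, it occurred in 3 of the 12 called list genes with a RefSeq entry (Asns, Atf3 and Chac1). It occurred in 10 of the 36 genes of the whole list with an entry. A gene with several starts has several windows, so the counts by gene and the share of windows are not in the same unit. The windows of Chac1 (chr2:119350992-119351241, plus strand) and Atf3 (chr1:191183334-191183583, minus strand) are shown because both genes were higher in members and hold 1 match each, and that of the rule gene Trib3 (chr2:152344061-152344310, minus strand) for comparison. They read 5′ to 3′ towards the start, with the match in capitals as it lies on the gene's strand.
Chac1: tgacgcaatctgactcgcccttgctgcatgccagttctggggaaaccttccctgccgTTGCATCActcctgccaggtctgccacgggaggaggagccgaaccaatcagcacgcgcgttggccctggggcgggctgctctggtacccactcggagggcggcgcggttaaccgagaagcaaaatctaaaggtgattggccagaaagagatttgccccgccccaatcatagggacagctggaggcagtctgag
Atf3: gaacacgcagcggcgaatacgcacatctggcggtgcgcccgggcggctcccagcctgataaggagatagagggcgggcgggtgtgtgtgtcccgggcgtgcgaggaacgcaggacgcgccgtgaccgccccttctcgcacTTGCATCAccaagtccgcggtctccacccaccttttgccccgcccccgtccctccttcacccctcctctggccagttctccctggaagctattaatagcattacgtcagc
Trib3: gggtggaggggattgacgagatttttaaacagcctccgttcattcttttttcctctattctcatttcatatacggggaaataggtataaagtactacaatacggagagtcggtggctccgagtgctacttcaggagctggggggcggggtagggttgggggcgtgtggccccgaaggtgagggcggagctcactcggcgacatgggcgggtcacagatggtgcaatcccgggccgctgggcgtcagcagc
The match begins 193 bases upstream of the start in Chac1 and 110 bases in Atf3. These letters do not occur in the Trib3 window. A match is a description of sequence and was not tied to binding by any measurement here.

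Other genes among the highest encode secreted or surface proteins. Lif, an IL-6 type cytokine like Il11, stood at 38.8 against 18.4 CPM in control and 60.04 against 15.3 CPM in anti-PD-1, log2 ratios of 1.08 (0.92 to 1.23) and 1.98 (1.71 to 2.23). Prl8a9, a placental member of the prolactin family, stood at 89.8 against 43.0 CPM and at 119 against 19.0 CPM, ratios of 1.06 and 2.65. Some control cells below the threshold held as much, as given with the rank groups. Its UMIs were uneven: 21.7% of control and 15.2% of anti-PD-1 members had one, and a single cell held 27.6% and 19.9% of them. Il23a, the p19 subunit of IL-23, had ratios of 1.05 and 0.98, and Procr, the protein C receptor, 0.92 and 1.65. A single anti-PD-1 member held 26.4% of the Procr UMIs of those members. The remaining genes of the 15 highest were Arid5a, an RNA-binding regulator of cytokine transcripts (1.11 and 1.39), the early response gene Ier3 (0.998 and 1.41), the thioesterase Acot2 (0.91 and 1.62), Gng8 (0.91 and 1.16), Atp13a4 (1.03 and 1.04) and Ttc39c (0.99 and 1.1).

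Growth factor and early response genes were higher in part. Of all 9490 measured genes, 0.664% were called higher and 0.632% lower. Of 17 measured genes of the MAPK list, 4 were called higher and none lower: the phosphatase Dusp5 (0.91 and 0.94), the ephrin receptor Epha2 (0.75 and 0.63) and the EGF receptor ligands Hbegf (0.96 and 0.72) and Areg (0.75 and 0.97). Of 19 measured immediate early genes, Ier3 and Myc were called higher and none lower; Myc stood at 2717 against 1775 CPM in control and 2190 against 1350 CPM in anti-PD-1, ratios of 0.61 and 0.70. Ptgs2, the inducible enzyme of prostaglandin synthesis, stood at 237 against 138 CPM and at 593 against 112 CPM, ratios of 0.78 and 2.40, and was the only called gene of 16 measured on the NF-kB and cytokine list. A single anti-PD-1 member held 27.3% of its member UMIs. Plaur, the urokinase receptor, had ratios of 0.75 and 0.65.

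Several stress programmes other than that of amino acids showed no called gene. The unfolded protein response of the endoplasmic reticulum had medians of -0.01 and 0.08 over 22 measured genes, and the highest of its genes was Herpud1 (0.51 and 0.77). The hypoxia and glycolysis list had medians of 0.03 and 0.30 over 32 genes, with the hypoxia-induced gene Ndrg1 at 0.41 and 1.82. A single anti-PD-1 member held 20.2% of the Ndrg1 UMIs of those members. The 13 NRF2 targets had medians of 0.07 and -0.01, with heme oxygenase Hmox1 at 0.44 and 1.81. Hmox1 stood at 607 and 407 CPM in cells below the tumour gate, over 5 times its level in tumour cells, and their part in its ratio was not tested. The 14 heat shock genes had medians of 0.00 and -0.33. Of 24 measured genes of G2 and M phase, 21 had ratios below 0 in both libraries, with medians of -0.14 and -0.46, and none passed 1.5-fold in both. Of all 9490 measured genes, 3394 had ratios below 0 in both.

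Matrix genes were lower in members. Of 18 measured mesenchymal genes 4 were called lower and none higher, with medians of -0.57 and -0.46. Among all 9490 measured genes 0.632% were called lower. Col3a1, a fibrillar collagen, stood at 440 CPM in members and 1779 CPM in other tumour cells of control, and at 904 and 2080 CPM in anti-PD-1, ratios of -2.02 (-2.06 to -1.98) and -1.20 (-1.27 to -1.14). S100a4 had -1.02 and -0.84, Col1a1 -0.68 and -0.77, and Col1a2 -0.68 and -1.86. Outside that list the 10 lowest genes held the collagen VI chains Col6a2 (-2.49 and -1.37) and Col6a1 (-1.89 and -1.03), the matrix protein Dpt (-2.27 and -1.25), the thrombin receptor F2r (-1.80 and -1.01), the transcriptional inhibitor Id3 (-1.19 and -1.16) and the copper carrier ceruloplasmin, Cp (-1.84 and -1.22). The others of the 10 were Sertad4, Tle2 and Gstm2, with ratios between -1.70 and -0.87. In cells below the tumour gate Col1a1 stood at 1863 and 1227 CPM, Col1a2 at 1545 and 1152 CPM and Col3a1 at 6573 and 9571 CPM, in control and anti-PD-1. The part of RNA from such cells in the ratios of these genes was not tested.

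Markers of fibroblasts moved with these genes. The 9 markers, none of them at 0, summed to 867 CPM in members and 1372 CPM in other tumour cells of control, and to 1235 and 1490 CPM in anti-PD-1. With tumour cells over 2000 CPM of these markers left out, a choice made after seeing the data, 40 genes were called higher and 16 lower. Col3a1 then had ratios of -1.42 and -0.48, Dpt -1.34 and -0.45, Col6a1 -1.08 and -0.06, and the anti-PD-1 ratio of Col6a2 was 0.02. F2r, at -1.33 and -1.02, S100a4, at -1.01 and -0.70, and Id3, at -1.22 and -0.86, were still past 1.5-fold in both libraries. The ratios of Chac1 were then 2.07 and 3.16.

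Genes of the interferon gamma response were also lower. Of 22 measured genes 19 had ratios below 0 in both libraries and 6 were called lower, with medians of -0.38 and -0.59. Of all 9490 measured genes, 3394 had ratios below 0 in both libraries and 0.632% were called lower. Iigp1, an immunity-related GTPase, stood at 83.3 CPM in members and 137 CPM in other tumour cells of control, and at 7.78 and 27.8 CPM in anti-PD-1, ratios of -0.72 and -1.84. The chemokine Cxcl9 had -0.67 and -1.08, the guanylate-binding protein Gbp5 -0.94 and -1.01, and Ifi47 -0.80 and -1.01. The anti-PD-1 values rest on few counts: 13 of 171 members had an Iigp1 UMI and 10 had one of Cxcl9. Cells below the tumour gate held 119 and 84.1 CPM of Gbp5 and 228 and 33.0 CPM of Cxcl9, and their part in these ratios was not tested.

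**Figure D3:**
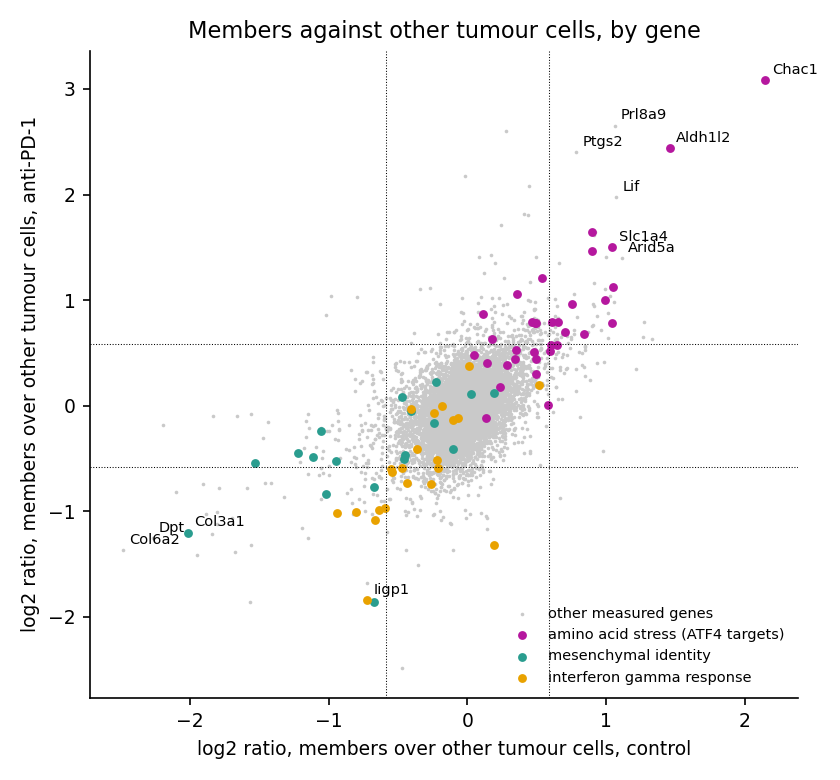
Log2 ratio of members over other tumour cells in control (x axis) and anti-PD-1 (y axis) for each measured gene outside the rule and gate lists; dotted lines mark 1.5-fold. Amino acid stress genes lie towards the upper right, led by Chac1 at 2.15 and 3.08, and mesenchymal and interferon gamma genes towards the lower left.

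The members held different cells according to which of the 5 genes had the most UMIs, a split made after seeing the data. Msln led in 204 control and 56 anti-PD-1 members, Il11 in 134 and 57, Trib3 in 122 and 27, Il24 in 45 and 4, and Dynap in 24 and 10; in 47 and 17 members the highest genes were tied. Msln-led members were 7.03% of the tumour cells in control and 1.23% of those in anti-PD-1. The shares were 4.62% and 1.25% for Il11-led members, 4.21% (3.51 to 5.0) and 0.59% (0.39 to 0.86) for Trib3-led members, and 1.55% and 0.09% for Il24-led members.

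The amino acid stress genes were high in the Trib3-led members. There the list's median log2 ratio over other tumour cells was 1.39 in control and 1.74 in anti-PD-1, over 35 and 31 measured genes. Trib3, which chose these cells, belongs to the same programme, so these values are descriptions. The list's median was 0.25 and -0.14 in Msln-led members, 0.20 and 0.08 in Il11-led members, and 0.14 in the control members led by Il24. Cell by cell, the median sum over the list was 11578 and 12350 CPM in Trib3-led members and 4286 and 3599 CPM in other tumour cells. Of Trib3-led members, 99.2% in control and 96.3% in anti-PD-1 lay above the upper quartile of the other tumour cells of their library. Aldh1l2 stood at 335 CPM in Trib3-led control members and 395 CPM in those of anti-PD-1, ratios of 2.87 (2.76 to 2.98) and 4.30 (4.07 to 4.52), and 115 of 122 and 25 of 27 cells had a UMI. Chac1 stood at 162 and 256 CPM, ratios of 3.71 and 4.92. Other genes with high ratios there were Atf5 (2.27 and 3.42), Slc6a9 (2.42 and 2.89), Psph (2.14 and 2.24), Slc1a4 (2.12 and 3.01), Mthfd2 (1.84 and 2.17), the mitochondrial PEP carboxykinase Pck2 (1.77 and 2.05), the stress-induced mTORC1 inhibitor Sesn2 (1.69 and 2.38) and asparagine synthetase Asns (1.60 and 1.98). Outside these, Atf3 had 1.48 and 2.43, Arid5a 1.77 and 2.25, and Il23a 1.66 and 2.20. Sterol synthesis genes were lower there, with list medians of -0.65 and -0.49, and the collagen IV chain Col4a1 had -1.32 and -1.25.

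In Il11-led members some cytokine genes had high ratios, while the lists they belong to had medians nearer 0. Lif stood at 87.4 CPM in those of control and 132 CPM in those of anti-PD-1, ratios of 2.24 (2.03 to 2.45) and 3.12 (2.79 to 3.43), with a UMI in 55 of 134 and 21 of 57 cells. The neutrophil chemokine Cxcl1 had 1.68 and 1.98, Ptgs2 1.66 and 2.66, the EGF receptor ligand Ereg 1.59 and 1.63, and Ier3 1.77 and 2.15. Some of these were also high in other members. Ptgs2 had 0.62 and 3.64 in Trib3-led members, with 58.8% of the anti-PD-1 UMIs in 1 cell, and 0.23 and 0.20 in Msln-led members. Cxcl1 had -0.49 and 1.22 in Trib3-led members, with 56.1% of the anti-PD-1 UMIs in 1 cell. Ier3 had 0.70 and 1.51 there, 2.01 and 1.86 in Dynap-led members, and 0.40 and -0.32 in Msln-led members. Prl8a9 (2.80 and 3.39) and the inducible nitric oxide synthase Nos2 (2.32 and 2.72) had larger ratios, but single cells held 39.9% and 40.7% of the Prl8a9 UMIs and 46.2% and 39.8% of those of Nos2. The NF-kB and cytokine list had medians of 0.15 and 0.64, the list of IL-6 type cytokines and receptors 0.14 and 0.38, and the hypoxia list 0.31 and 0.38. The amino acid stress genes were uneven in Il11-led members. Asns had 0.06 and 0.03, Aldh1l2 1.17 and 1.55, Atf3 1.24 and 2.33, and Chac1 1.32 and 2.52. Single cells held 18.02% and 25% of the Aldh1l2 UMIs, 11.2% and 18.8% of those of Atf3, and 45.9% and 36.4% of those of Chac1.

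The RefSeq windows of Il11 (chr7:4778142-4778391, minus strand, upstream of 1 of 2 starts listed) and Lif (chr11:4257318-4257567, plus strand) are shown. Il11 is high in these cells by the choice, and Lif was high in them too. For a gene with more than 1 start, a window with a match was taken where there was one. Each window shown holds 1 match, in capitals, to the AP-1 element TGANTCA, both strands searched. The element occurred in 6.75% of all windows. Counted by gene, it occurred in 3 of the 12 genes with a RefSeq entry among the 15 highest.
Il11: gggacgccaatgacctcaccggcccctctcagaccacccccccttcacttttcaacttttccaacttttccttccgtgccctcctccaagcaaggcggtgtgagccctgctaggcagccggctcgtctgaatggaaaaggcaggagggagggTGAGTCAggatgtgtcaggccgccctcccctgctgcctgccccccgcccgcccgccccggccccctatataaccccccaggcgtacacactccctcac
Lif: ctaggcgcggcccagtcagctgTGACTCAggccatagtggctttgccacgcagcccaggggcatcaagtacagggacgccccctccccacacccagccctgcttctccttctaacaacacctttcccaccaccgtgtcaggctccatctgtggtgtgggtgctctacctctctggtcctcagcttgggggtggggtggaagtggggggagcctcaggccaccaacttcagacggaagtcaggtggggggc
The match begins 98 bases upstream of the start in Il11 and 228 bases in Lif. No binding was measured.

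The highest genes of Msln-led members had smaller ratios over other tumour cells than those of Il11-led or Trib3-led members. Itga3, an integrin chain for laminin, stood at 685 against 360 CPM in control and 581 against 301 CPM in anti-PD-1, ratios of 0.93 (0.88 to 0.98) and 0.95 (0.81 to 1.09), and 202 of 204 and 54 of 56 cells had a UMI. The matrix protein gene Tinagl1 had 0.96 and 0.99, Hbegf 0.98 and 0.88, Epha2 0.89 and 0.87, and the natriuretic peptide gene Nppb 0.95 and 0.84. In the Il11-led members the ratios of Tinagl1 were 0.01 and -0.00, and in the Trib3-led members -0.04 and -0.49. The 45 Il24-led control members had 0.92 for Tinagl1, 0.76 for Itga3, 0.98 for Epha2, 1.505 for Hbegf and 1.21 for Nppb. Nppb had 0.79 and 1.34 in Il11-led members. The lowest genes of Msln-led members were Nos2 (-2.60 in control, with 1 UMI in anti-PD-1), decorin, Dcn (-2.43 and -1.76), the stromelysin Mmp3 (-1.73 and -1.86), Id3 (-1.56 and -1.57) and the monocyte chemokine Ccl2 (-1.32 and -1.43). Fibroblast markers had list medians of -1.37 and -0.85 there, against -1.04 and -0.41 in Trib3-led and -0.51 and -0.45 in Il11-led members, and their part in these values was not tested. The interferon gamma list was below 0 in all of these 3 groups, with medians between -0.65 and -0.33.

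**Figure D4:**
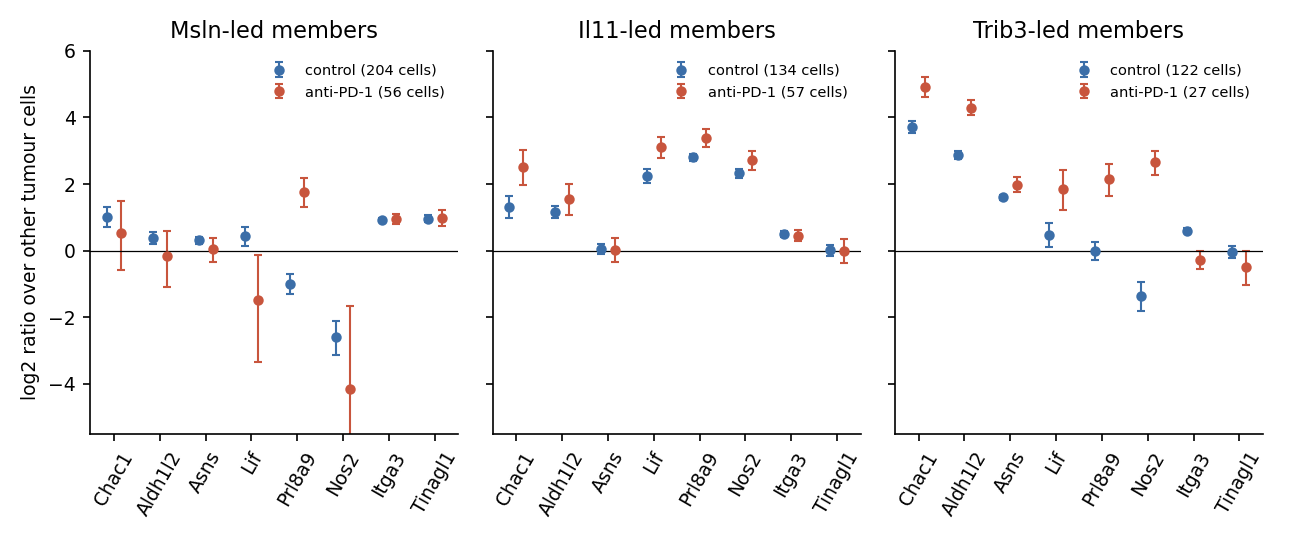
Log2 ratio over other tumour cells of the same library for 8 genes in members led by Msln, Il11 or Trib3, with exact 95% counting intervals (the interval of Nos2 in anti-PD-1 Msln-led members runs below the axis). Chac1, Aldh1l2 and Asns are highest in the Trib3-led members, Lif in the Il11-led members, and Itga3 and Tinagl1 lie near 0.95 in the Msln-led members.

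Levels changed by degrees below the threshold for some genes, and for others mostly between the group just below it and the members. The members span a wide range, 319.3 to 4422 CPM in control, against 185.7 to 318.9 CPM in the group below. They were not divided further, so a change cannot be placed at the threshold itself. Tumour cells were ranked by the marker sum into 10 pooled rank groups of equal size, with all cells at 0 kept together, which leaves the lowest group above 0 (group 5) smaller. The amino acid stress list summed to 4208 CPM in control cells at 0, 5375 CPM in the group just below the members and 6800 CPM in members, and to 3679, 4569 and 6021 CPM in anti-PD-1. Chac1 stood at 7.91, 22.5 and 55.1 CPM in control and at 6.03, 16.7 and 71.7 CPM in anti-PD-1. Prl8a9 did not follow this order in control, where it stood at 106 CPM in group 7, 92.9 CPM in group 8, 32.2 CPM in group 9 and 89.8 CPM in members. In anti-PD-1 the same groups held 17.8, 35.0, 31.8 and 119 CPM. The mesenchymal list declined over the same steps, from 28302 through 22323 to 21322 CPM in control and from 24204 through 18620 to 16578 CPM in anti-PD-1, so that most of its difference in control lay below the threshold. Fibroblast markers were at 1836 CPM in control cells at 0.

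**Figure D5:**
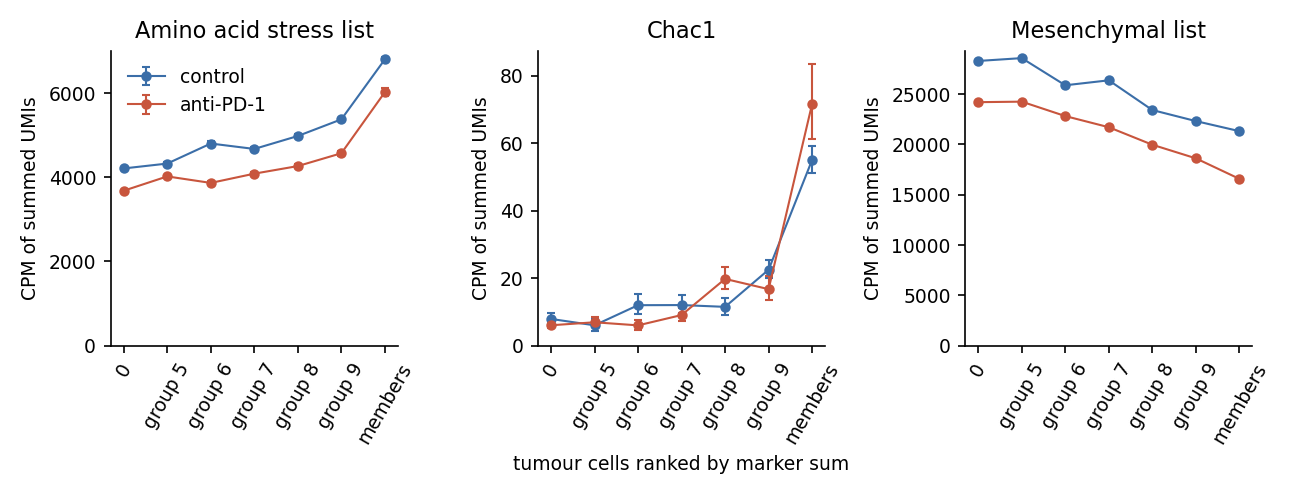
CPM of summed UMIs for the amino acid stress list, Chac1 and the mesenchymal list in tumour cells ranked by the marker sum (cells at 0, then pooled rank groups 5 to 9, then members), with exact Poisson 95% intervals that are often smaller than the points. The amino acid stress list and Chac1 are highest in members of both libraries, at 6800 and 6021 CPM and at 55.1 and 71.7 CPM, and the mesenchymal list is lowest there.

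Members overlapped with other high-expressing tumour cells to different extents. Of the 747 members, 34.9% were among the 747 tumour cells highest for the amino acid stress list, and the share of those cells that were members is the same number. By library it was 38.4% of control and 23.4% of anti-PD-1 members, against 18% and 4.92% of all tumour cells. For the hypoxia list the shares were 16.5% and 13.5% of members, against 16.2% and 6.04% of all tumour cells. For the interferon gamma list they were 11.5% and 2.34%, against 17.3% and 5.34%. For Dkk2 and Col8a1 they were 1.56% and 21.6%, against 1.90% and 15.1%, and for Gria3 and Gpnmb 6.42% and 15.8%, against 4.76% and 13.3%.

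Within members the libraries were compared as they stand, which cannot be told apart from differences between animals or preparations. Of 9446 genes measured, 659 were over 1.5-fold higher in anti-PD-1 (6.98%) and 690 lower (7.30%). In the other tumour cells 592 of 12077 were higher (4.90%) and 848 lower (7.02%). Members of the anti-PD-1 library had fewer UMIs and a different mix of leading genes, and the part of either in these values was not tested.

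Interferon gamma genes were lower in anti-PD-1 members, as they were in the other tumour cells. Of 25 measured genes 22 were over 1.5-fold lower, with a median log2 ratio of -1.41, and in other tumour cells 27 of 32 with a median of -1.36. Iigp1 went from 83.3 to 7.78 CPM (-3.42, -4.18 to -2.75), Gbp2 from 241 to 35.0 CPM (-2.79) and Cxcl9 from 33.6 to 4.32 CPM (-2.96). Tgtp1 went from 15.1 to 1.30 CPM on 3 anti-PD-1 UMIs. The sodium-proton exchanger Slc9a2 went from 27.1 to 3.89 CPM (-2.80), and from 13.9 to 2.08 CPM in other tumour cells (-2.74). The globins Hba-a2, Hbb-bs and Hbb-bt, RNA of red blood cells, were also among the 8 lowest, at ratios between -2.95 and -2.86 in members and between -3.55 and -3.10 in other tumour cells.

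Some cytokine and matrix genes were higher in anti-PD-1 members. On the NF-kB and cytokine list 10 of 18 measured genes were over 1.5-fold higher and 2 lower, with a median of 0.85, whereas in other tumour cells none of 24 was higher and the median was -0.18. On the mesenchymal list 7 of 18 were higher and 1 lower, with medians of 0.35 in members and -0.05 in other tumour cells, and fibroblast markers had medians of 0.95 and 0.17. The summed level of the whole mesenchymal list went the other way, from 21322 CPM in control members to 16578 CPM in anti-PD-1 members. Mmp3 went from 195 to 553 CPM in members (1.502, 1.40 to 1.60) and from 372 to 578 CPM in other tumour cells (0.64). The chaperone clusterin, Clu, went from 90.4 to 257 CPM (1.504), and from 209 to 371 CPM in other tumour cells (0.83). Mmp10, another stromelysin, had the largest ratio, from 7.48 to 78.2 CPM (3.39), but a single cell held 45.3% of its anti-PD-1 UMIs and 26 of 171 members had one. Also among the 8 highest were Gask1b (2.02), Pde2a (1.97), the glutamate receptor Gria3 (1.87), Ndst3 (1.74) and Atp13a4 (1.48), whose ratios in other tumour cells lay between 0.95 and 1.47.

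A few named genes were higher in anti-PD-1 within members but lower in the rest of the tumour cells, while the amino acid stress list was below 0 in both. The amino acid stress list had a median of -0.14 in members, with 2 of 39 genes higher and 10 lower, and of -0.38 in other tumour cells, with none of 40 higher and 14 lower. Chac1 had 0.38 (0.13 to 0.63) in members and -0.55 (-0.71 to -0.40) in other tumour cells, and Lif 0.63 (0.35 to 0.90) and -0.27 (-0.39 to -0.15). The angiogenic factor Vegfa stood at 92.6 CPM in control and 137 CPM in anti-PD-1 members (0.56), and at 78.2 and 41.9 CPM in other tumour cells (-0.90). Of the rule genes, Il11 had 0.70 in members and -0.39 outside, and Il24 -1.40 and -3.11, values that the pooled threshold helps to set. The threshold holds members of both libraries to the same lowest marker sum, and its part in the ratios of Chac1, Lif and Vegfa was not tested. Whether members and other tumour cells differ in their response to the antibody was not tested.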

How the data were processed

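Single cells of 2 tumour libraries were measured. Per the file headers the deposited values are UMI counts per gene and barcode, not normalized, for 19070 genes. The submitters' processing notes name Cell Ranger 7.0.1 and mm10, and the headers of the matrices name Cell Ranger 9.0.1. Flex chemistry, in which probes for each gene are ligated and counted, and a 3' protocol are both named in the labels; with probes, levels compared between genes depend on the probes. The sources used here do not give the annotation behind the counts.

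UMIs were summed over members and over other tumour cells of each library and scaled to CPM (Python 3.11.15, numpy 2.4.6, scipy 1.17.1). Log2 ratios carry exact conditional 95% intervals, CPM exact Poisson and shares exact Clopper-Pearson intervals, for counting error only. A gene was called when over 1.5-fold in the same direction in both libraries, with at least 20 expected member UMIs in each. Where 1 side had 0 UMIs, 3 counts stood in. Named were the 5 rule genes, the 15 highest and 10 lowest by the smaller of both libraries' ratios, up to 4 genes of each of 35 lists, and the 8 highest and 8 lowest between libraries. Genes over 5 times higher, in either library, in cells below the tumour gate than in tumour cells were left out of the picks by ratio, but not of the picks from lists. Members led by 1 gene were described by up to 8 genes in each direction. Other genes and subgroup genes named here were chosen after their values were seen. No doublet caller was run. Very deep cells were left out as an alternative.

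The members, gene lists and genes were chosen with earlier results of these data known, so no value is independent support. The calculations were tested on simulated data. Gene positions come from the GENCODE annotation of GRCm38, which is mm10, and upstream windows from RefSeq (GRCm38.p6). RefSeq windows were matched by symbol.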

Additional observations from a re-analysis of the deposited data

How the results depend on the processing

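Intervals cover counting error only, 1 library per group gives no spread between animals, and shallow cells limit low genes. The results rest on which of the 5 genes enter the sum. With Il24 and Msln alone, members made up 4.62% of anti-PD-1 tumour cells, 18 genes were called higher, and the amino acid stress median was 0.14 in control and -0.072 in anti-PD-1. The anti-PD-1 log2 ratio was then -0.82 for Trib3, -0.25 for Chac1, -0.55 for Aldh1l2, -0.38 for Lif, -0.22 for Slc6a9, -0.34 for Ier3, -0.091 for Ttc39c, -0.22 for Gpt2, -0.013 for Il23a, -0.12 for Myc and -0.17 for Ptgs2, and the control ratio -0.022 for Aldh1l2 and -1.25 for Prl8a9. Without Trib3 the median was 0.14 and -0.0037, and the anti-PD-1 ratio was -0.32 for Slc6a9 and -0.17 for Gpt2. Without Il11 the anti-PD-1 median was 0.81 and the control ratio of Prl8a9 -0.21. Without Msln 101 genes were called higher, the anti-PD-1 median was 0.82, and Gbp5, Cxcl9 and Col1a1 had anti-PD-1 ratios of 0.028, 0.44 and 0.58.

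The top 5% gave 10.3% of control and 1.60% of anti-PD-1 tumour cells and an anti-PD-1 median of 0.99. The top 20% gave 35.1% and 10.4%, a median of 0.42 and an anti-PD-1 ratio of 0.011 for Col1a1. The top 10% of each library gave 10% and 10.0%, with medians of 0.69 and 0.46. Thinning to 5000 UMIs before ranking gave 4.64% in anti-PD-1, 34 genes higher and 37 lower, an anti-PD-1 median of 0.46 and a Cxcl9 ratio of 0.15. Ranking by mean log2(CPM + 100) gave 2.87% in anti-PD-1, and at least 10000 UMIs gave 2.91%. Allowing no UMI of the immune genes gave 6.09% in anti-PD-1, medians of 0.68 and 0.48, and a control ratio of 0.18 for Col1a2, which was 0.023 by the mean of per-cell CPM. At least 1000 CPM of the tumour genes left 33 genes lower. A 2-fold limit left 8 higher and 14 lower, and 97 higher and 111 lower between libraries. At least 50 expected UMIs left 29 lower, and no filter gave 295 and 195. Without cells over 2000 CPM of fibroblast markers, added after seeing the data as was leaving out shared barcodes, members made up 3.16% of anti-PD-1 tumour cells, 40 genes were higher and 16 lower, and the anti-PD-1 ratio of Col6a2 was 0.024. A higher limit on fold or on expected UMIs leaves fewer genes by construction, and a stricter limit on cells leaves fewer cells. For the other changes the cause was not tested. These include the fall from 60 to 33 genes lower with at least 1000 CPM of the tumour genes. No paired analysis was possible because each group has 1 library. Of 874 list medians recomputed, 665 were counted as moved by no more than 0.1, 207 as moved more and 2 as changed in sign. Those 2 were the anti-PD-1 median of the amino acid stress list. Of 4864 ratios of single genes, 3405 were counted as the same, 1435 as moved and 24 as changed in sign. A value near 0 can change sign by a small move, so these counts may not hold every change of sign.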
